A study of Mus musculus with 24 samples.

Results

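The genes described here encode lysosomal hydrolases, lysosomal membrane proteins, subunits of the lysosomal proton pump and the TFEB family of transcription factors, in mouse bone marrow-derived macrophages that were kept in different sera with or without lipopolysaccharide (LPS). The list holds 46 genes. Each was represented by the probe set that named that gene alone and had the highest mean over the 24 arrays, and 45 of the 46 had such a probe set (Cd63 had none). All 45 passed the filter on low signal and are compared below, among 11785 genes tested of 18193 genes with a probe set.

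Lysosomes break down proteins, glycans and lipids with hydrolases that work at acid pH, and a vacuolar ATPase pumps protons into the organelle to keep it acid. Macrophages depend on this system to digest what they engulf, and several cathepsins also process antigens. TFEB, TFE3 and MITF, the MiT/TFE family, are basic helix-loop-helix leucine zipper factors that are held in the cytoplasm when the kinase mTORC1 is active at the lysosome and enter the nucleus when it is not, where they bind E-box letters in the promoters of lysosomal and autophagy genes.

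The cells were prepared from bone marrow of C57Bl/6 mice, the strain shared by all groups, plated overnight, washed, and given for 4 h a medium that was free of serum or held 5% serum of fetal calves, of mice or of humans, in each case without LPS (control) or with 25 ng/ml LPS. The sera had been heated at 56 °C for 30 min to inactivate complement. This made 8 groups of 3 arrays, from 3 replicate experiments called G, H and I. The labels do not say whether the experiments came from separate animals or pooled marrow, so the p-values measure the spread between these experiments. The cells were derived in culture, and neither sera nor LPS were compared at other doses or times.

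Values are log2 expression from Affymetrix arrays, on which 1 unit is a 2-fold difference. Array medians lay between 5.04 and 5.13, and arrays of the same group correlated at r = 0.983 to 0.992 across genes. All 9 macrophage markers were above 5.08, the level used as the filter, on all 24 arrays, and the same held for 0 of 4 T and NK cell, 0 of 4 B cell, 0 of 5 mast cell and basophil, 1 of 6 dendritic cell, 1 of 6 fibroblast, 1 of 4 endothelial, 1 of 5 erythroid and megakaryocyte and 3 of 6 neutrophil markers. Some of these moved with LPS, not always together within a list. The mean of the B cell gene Cd79b was 6.46 on the control and 5.38 on the LPS arrays. The other B cell genes were slightly higher with LPS: Cd79a (4.32 and 4.45), Ms4a1 (2.61 and 2.87) and Pax5 (4.78 and 5.14). The endothelial gene Kdr had means of 6.38 and 7.47. Of the megakaryocyte genes, Pf4, high throughout, had 12.51 and 12.28, Ppbp 6.12 and 5.28, and Itga2b 5.63 and 5.93. The part of these markers in the results was not tested. The cytokine gene Tnf lay between 7.43 and 8.27 on the control arrays and between 10.84 and 12.66 on the LPS arrays, with no overlap. In a bulk culture, fewer cells of a type and less RNA per cell cannot be told apart.

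On the deposited scale LPS lowered most of the lysosomal genes by small amounts. With the 4 media averaged, 30 of 45 members (66.7%) were lower and 3 (6.67%) were higher (limma, Benjamini-Hochberg adjusted p under 0.05). The same comparison called 50.5% of all genes tested lower and 28.9% higher. The median difference of the members was -0.29 on the log2 scale, beside -0.18 for all genes tested. Tfeb, at -2.31, and Mitf and Ctsc, at 1.16 and 1.15, lay furthest from 0.

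**Figure D1:**
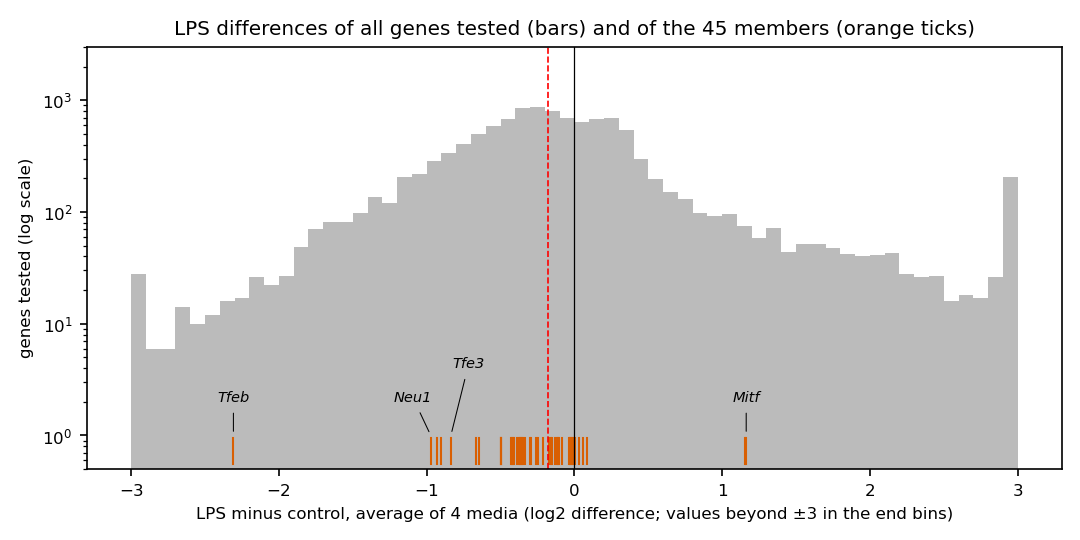
Histogram of the LPS minus control difference (x axis, log2, average of the 4 media) of the 11785 genes tested, with the number of genes on a log scale (y axis); orange ticks mark the 45 members, the dashed line the median of all genes (-0.18) and the solid line 0. Most ticks sit between -1 and 0.087, with Tfeb at -2.31 and Mitf and Ctsc at 1.16 and 1.15.

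On that scale most members were also lower in each medium taken alone. Without serum 29 members were lower and 2 higher, where 39.1% of all genes were lower and 19.8% higher. In calf serum the members' counts were again 29 and 2, against 37.8% and 20.8% of all genes. In mouse serum they were 25 and 2, against 33.8% and 17.8%, and in human serum 26 and 2, against 35.5% and 18.4%. The members' median LPS difference in serum-free, calf, mouse and human serum medium was -0.37, -0.29, -0.26 and -0.24, beside -0.19, -0.17, -0.15 and -0.16 for all genes. Each of the 33 members called in the average pointed the same way in each of the 3 experiments. Without some single array, 1, 3, 5 and 5 of the members called in these 4 media missed the threshold, and 1 of the 33 called in the average.

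In all 4 media the test called 23 members lower, a state shared by 23.8% of all genes, and 2 members higher, Mitf and Ctsc, a state shared by 12.9%. For 19 members the 12 LPS arrays all lay below the 12 control arrays, which happened for 16.3% of all genes, and for Mitf and Ctsc all 12 lay above, which happened for 11.0%. A further 12 members were called in no medium alone: Lamp2, Scarb2, Laptm5, Ctsf, Ctsh, Ctsk, Ctss, Ctsz, Galns, Arsb, Npc2 and Grn.

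The direction of the smallest changes depended on the scale. Centring each array on its median over the genes tested moved the median LPS difference of all genes from -0.18 to 0.031, and 21 of the 30 lower members then stayed lower. Ctsb, Hexa and Lamp1 turned from lower to higher, with centred differences of 0.13, 0.054 and 0.079. Another 6 (Atp6v1a, Atp6v1h, Gaa, Mcoln1, Ppt1 and Psap) no longer passed the threshold. A set of 7 uncalled members (Arsb, Ctsh, Ctss, Ctsz, Grn, Lamp2 and Laptm5) became higher, so that the split was 21 lower and 13 higher. These calls rest on the brightest probe set of each gene. On the deposited scale the other probe sets of Ctsb gave -0.22 to -0.57, and those of Laptm5 -0.46, -0.41 and 0.30. Centred values of these other probe sets were not computed. A further 5 members called on neither scale (Ctsf, Ctsk, Galns, Glb1 and Scarb2) changed sign, to 0.037, 0.11, 0.092, 0.099 and 0.19. By medium, centring gave 15 lower and 10 higher members in serum-free cells, and the splits for the calf, mouse and human sera were 15 and 12, 12 and 9, and 13 and 9. Quantile normalization of the arrays gave 32 lower and 4 higher on the average. The shares of all genes given above hold for the deposited scale, and none are given in this report for the other scales. On the average the members' median was -0.083 under centring, beside 0.031 for all genes, and -0.27 under quantile normalization, beside -0.096.

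**Figure D2:**
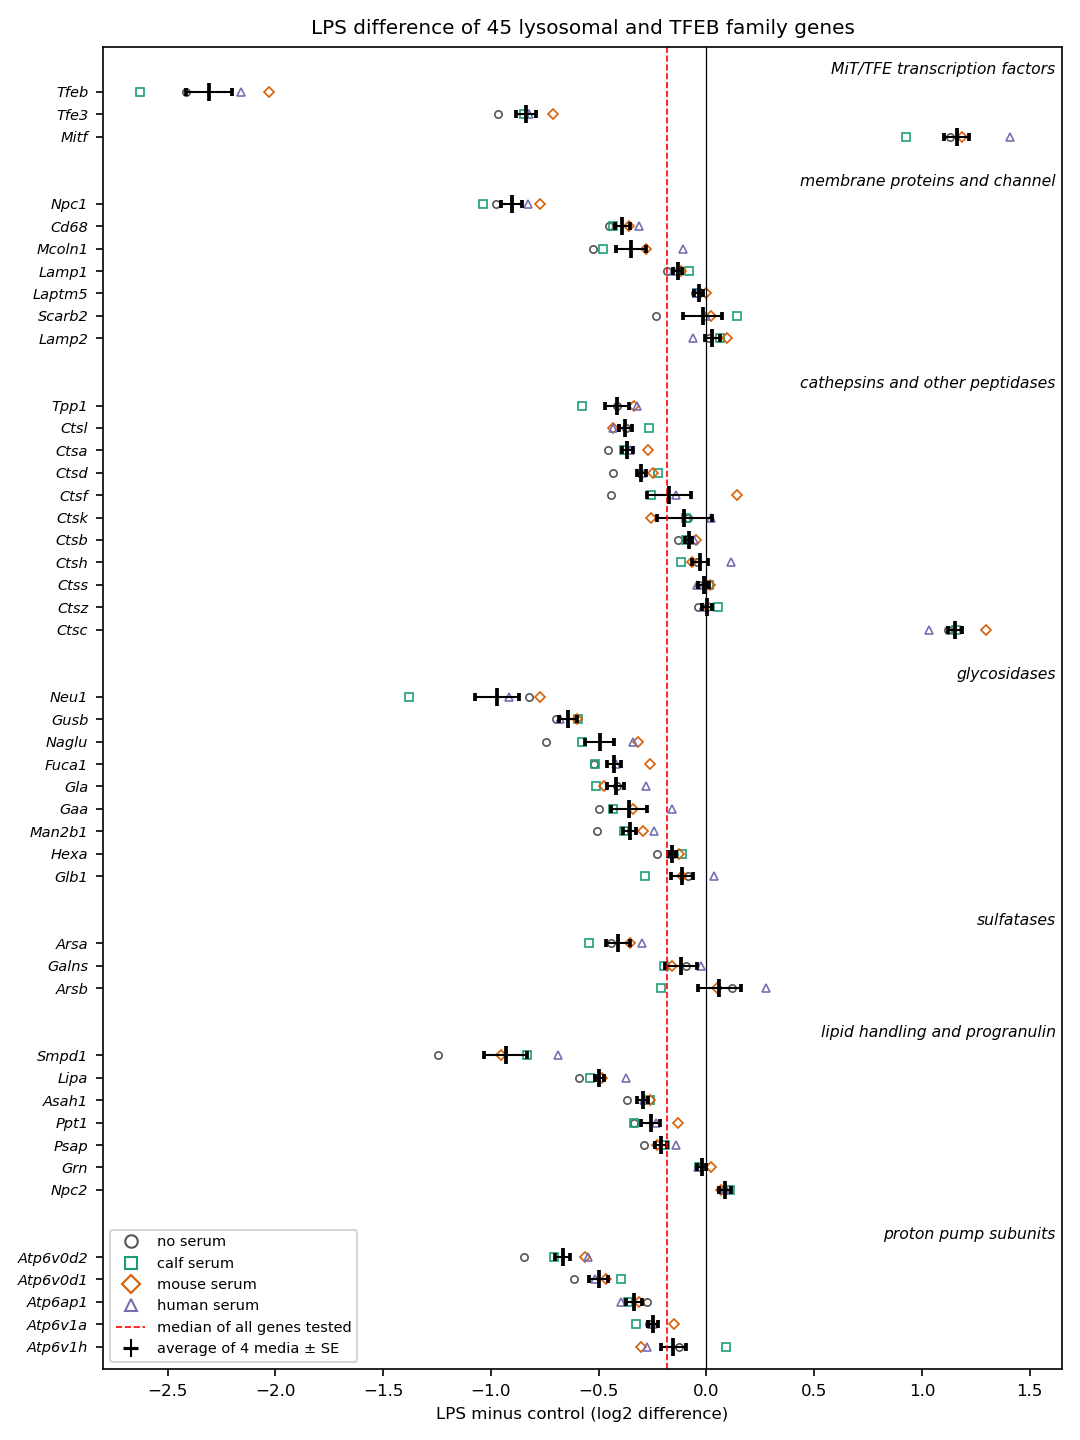
LPS minus control difference (x axis, log2) of each of the 45 members (y axis, grouped by role); black bars are the average of the 4 media with its standard error, open symbols the 4 media, and the dashed red line the median of all genes tested (-0.18). Tfeb lies furthest left at -2.31, Mitf and Ctsc furthest right at 1.16 and 1.15, and Neu1, Smpd1 and Npc1 follow Tfeb at -0.97, -0.93 and -0.90.

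The transcription factors of the family moved in opposite directions. Tfeb, the best known activator of lysosomal genes, read 8.52, 8.29 and 8.42 in experiments G, H and I without serum or LPS, 8.46, 7.87 and 8.55 in calf serum, 7.91, 7.40 and 7.14 in mouse serum and 8.01, 7.35 and 7.73 in human serum. With LPS it read 6.22, 5.98 and 5.80 without serum, 5.40, 5.84 and 5.75 in calf serum, 5.55, 5.39 and 5.43 in mouse serum and 5.29, 5.67 and 5.65 in human serum. Even the lowest control array, in mouse serum, lay above the highest LPS array, in serum-free medium. The average LPS difference was -2.31 ± 0.11 (SE), 4.95-fold lower (limma, adjusted p = 3.1e-15), with -2.61, -2.01 and -2.30 in experiments G, H and I. By medium it ranged from -2.63 ± 0.22 in calf serum to -2.03 ± 0.22 in mouse serum. The LPS arrays, from 5.29 to 6.22, lay not far above the filter level of 5.08. The part of that level in the size of the fall and in its order among media was not tested.

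Tfe3, a close relative that binds the same letters, fell as well and by less. Its control arrays ran from 10.86 over a median of 11.03 to 11.08, and its LPS arrays from 9.93 over 10.14 to 10.48. The groups did not overlap. The average difference was -0.84 ± 0.05 (SE), 1.79-fold lower (limma, adjusted p = 1.4e-13), and -0.82, -0.87 and -0.82 in the 3 experiments.

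Mitf, known from pigment cells, osteoclasts and mast cells, rose. It read 10.81, 10.87 and 10.86 without serum or LPS, 10.87, 10.96 and 10.94 in calf serum, 10.90, 10.78 and 10.69 in mouse serum and 10.06, 10.72 and 10.69 in human serum. With LPS it read 11.92, 11.97 and 12.04, then 11.82, 11.80 and 11.94, then 11.89, 11.94 and 12.08, then 11.74, 11.96 and 11.99 in the same order of media. The LPS arrays lay within a narrow band, and the human serum control of experiment G stood below the other controls. The average difference was 1.16 ± 0.06 (SE), 2.24-fold higher (limma, adjusted p = 1.1e-14), and a further tested probe set of Mitf gave 1.53. Tfec, the remaining member of the family and no part of the 46, rose by 1.78 ± 0.07 (limma, adjusted p = 2.9e-17), from 8.29 to 9.19 on the control arrays to 10.36 to 11.00 on the LPS arrays. Under median centring the differences of Tfeb, Tfe3 and Mitf were -2.10, -0.62 and 1.37.

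**Figure D3:**
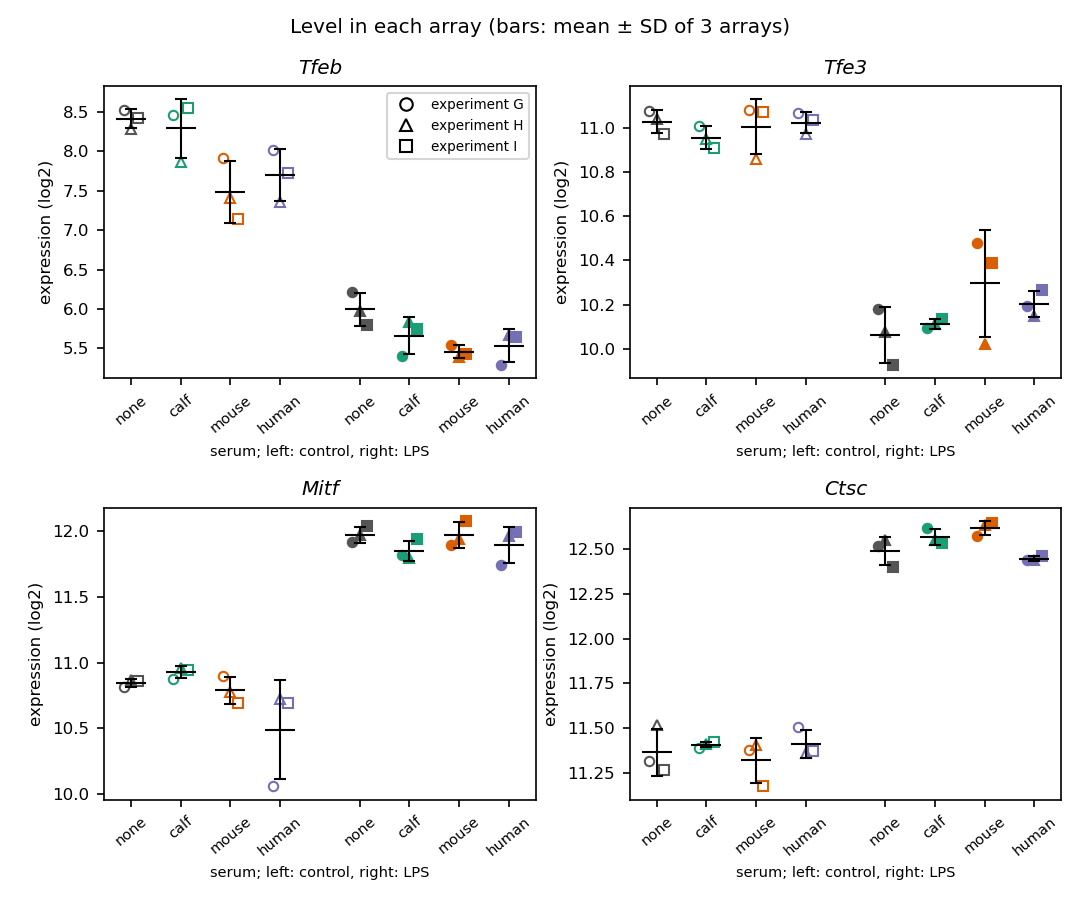
Level in each array (y axis, log2) of Tfeb, Tfe3, Mitf and Ctsc in the 4 media without LPS (left, open symbols) and with LPS (right, filled symbols); symbols give the experiment and bars the mean ± SD of 3 arrays. Tfeb and Tfe3 drop with LPS in each medium, Mitf and Ctsc rise, and the Tfeb controls in mouse and human serum sit below those without serum.

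MiT/TFE factors bind the E-box CACGTG, and the longer palindrome TCACGTGA is the core of the motif described for promoters of the lysosomal network. RefSeq promoter windows, 250 bases before to 50 after a gene's start on GRCm38.p6, were matched by symbol for 39 of the 46 members. CACGTG, which reads the same on both strands, stood in the windows of 13 of the 39 (33.3%), beside 8.09% of all 27025 genes with a window and 11.6% of the tested genes with one. TCACGTGA, also its own reverse complement and overlapping the shorter motif by construction, stood in 6 (15.4%), beside 1.12% of all genes and 2.23% of those tested. These are matches of letters, not measured binding. Because the motif was described for promoters of this class, its higher share among the members is not independent evidence.

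The stretches below are shown because they carry the longer palindrome or, for Lamp1, 4 copies of the E-box in 82 bases. They run 5′ to 3′ on the strand of the gene, with CACGTG in capitals. The positions on GRCm38.p6 are chr2:164833746-164833798, + strand, for Ctsa; chr7:142387905-142387940, - strand, for Ctsd; and chr8:3500433-3500494, + strand, for Mcoln1. Lamp1 is at chr8:13159085-13159166, + strand, and Atp6v0d1 at chr8:105566047-105566082, - strand. Atp6v1a is at chr16:44139370-44139405, - strand, and Gla at chrX:134601179-134601247, - strand. All stretches lie upstream of or across the annotated start of the gene.
Ctsa: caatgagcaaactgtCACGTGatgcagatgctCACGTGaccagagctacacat
Ctsd: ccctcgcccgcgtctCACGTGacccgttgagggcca
Mcoln1: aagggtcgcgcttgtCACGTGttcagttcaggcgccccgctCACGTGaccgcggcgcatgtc
Lamp1: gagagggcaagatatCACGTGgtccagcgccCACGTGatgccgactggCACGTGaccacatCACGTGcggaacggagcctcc
Atp6v0d1: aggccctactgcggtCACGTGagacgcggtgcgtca
Atp6v1a: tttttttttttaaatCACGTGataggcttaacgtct
Gla: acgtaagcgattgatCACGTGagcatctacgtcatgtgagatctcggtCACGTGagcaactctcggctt
Ctsa carried a copy on each side of its start, and Atp6v0d1 carried a copy across it. The remaining members with the letters were Arsa, Ctsf, Ctsl, Gaa, Glb1 and Naglu.

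With LPS, 11 of the 13 members with CACGTG in the window were lower and 0 higher, at a median of -0.36, where 50.5% of all genes tested were lower. Of the 25 measured members whose window lacked the letters, 14 were lower and 3 higher, at a median of -0.21, and of the 7 without a window 5 were lower, at -0.15. The range was narrow with the letters, from -0.50 for Atp6v0d1 to -0.11 for Glb1. Without them it ran, in a larger set, from -2.31 for Tfeb to 1.16 for Mitf, which are themselves MiT/TFE factors. Under median centring the members with the letters held 7 lower and 1 higher, at a median of -0.15, and those without them 11 and 10. No test was made between these sets, and the share lower among all tested genes with the letters is not given here.

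**Figure D4:**
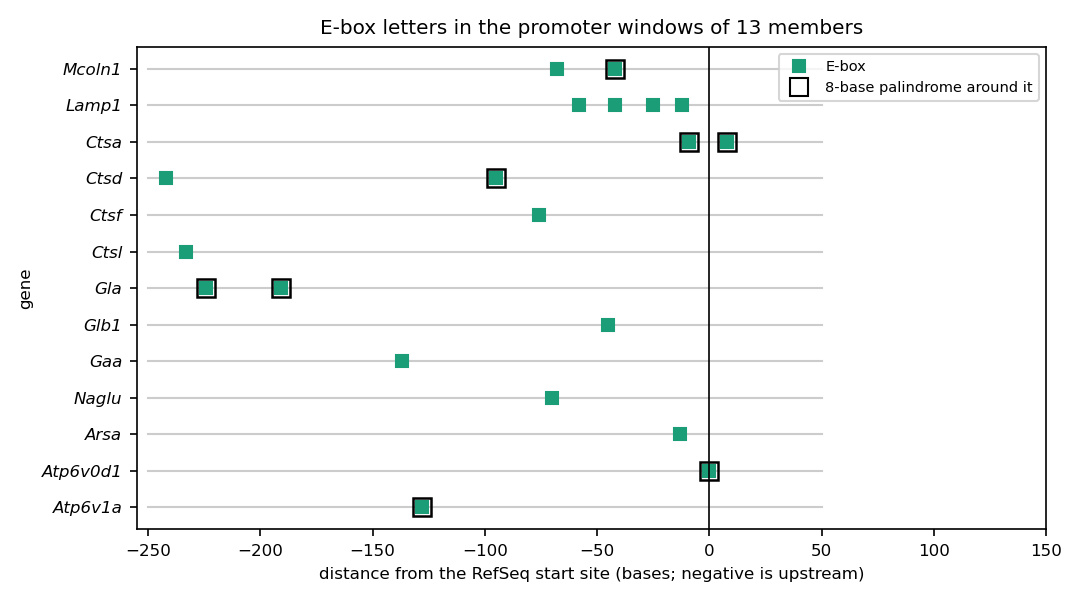
Position of E-box letters in the promoter windows of the 13 members that hold them, as distance from the RefSeq start site in bases (x axis) for each gene (y axis); filled squares are the E-box and outlined squares the longer palindrome, and grey lines span 250 bases before to 50 after the start. Lamp1 holds 4 copies, and Ctsa, Ctsd, Gla and Mcoln1 hold 2 each.

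Among the membrane proteins and the channel, 4 of 7 measured members were lower and 0 higher on the average over media, a share near the 50.5% of all genes that were lower, and median centring gave 2 lower and 3 higher. Npc1, which exports cholesterol from the lysosome, moved most. Its control arrays ran from 10.85 over a median of 11.02 to 11.11 and its LPS arrays from 9.76 over 10.11 to 10.35, with no overlap. The difference was -0.90 ± 0.05 (SE), 1.87-fold lower (limma, adjusted p = 5.4e-14). Cd68, a heavily glycosylated macrophage lysosomal protein, differed by -0.39 ± 0.04, and Mcoln1, the calcium channel TRPML1, by -0.35 ± 0.07. For Mcoln1 a second probe set gave -0.094, which did not pass the threshold. Another, near the filter level at a mean of 5.55, gave -0.40 and passed. Lamp1, an abundant structural glycoprotein of the membrane, differed by -0.13 ± 0.02 and turned to 0.079 under median centring. Lamp2, an isoform of which is the receptor of chaperone-mediated autophagy, stood at 12.21 in the median of both treatments. A further probe set of Lamp2 gave -0.11 and passed, and the remaining pair gave 0.080 and 0.081 and did not. Scarb2, the sorting receptor of glucocerebrosidase, had an average difference of -0.018 ± 0.089, while its second probe set gave -0.34 and passed. Laptm5, a membrane protein of blood cells, gave -0.035 in its brightest probe set and -0.46, -0.41 and 0.30 in its 3 others, each of which passed.

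Among 11 cathepsins and other peptidases 5 were lower and 1 was higher, a share of lower members near the 50.5% of all genes. Under median centring 4 were lower and 5 higher. The riser was Ctsc, dipeptidyl peptidase I, which activates serine proteases of granules. It read 11.32, 11.52 and 11.27 without serum or LPS, 11.39, 11.41 and 11.42 in calf serum, 11.38, 11.40 and 11.18 in mouse serum and 11.50, 11.36 and 11.37 in human serum. With LPS it read 12.52, 12.55 and 12.40, then 12.62, 12.55 and 12.53, then 12.57, 12.64 and 12.65, then 12.44, 12.44 and 12.46 in the same order. The lowest LPS array lay well above the highest control array, with little spread inside each group. The difference was 1.15 ± 0.03 (SE), 2.22-fold higher (limma, adjusted p = 2.8e-19). A pair of dimmer probe sets of Ctsc gave 3.30 and 3.21, so the size of the rise depended on the probe set.

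Tpp1, tripeptidyl peptidase, had the largest fall of this list. Its control arrays ran from 10.88 over 11.11 to 11.37 and its LPS arrays from 10.31 over 10.69 to 10.88, meeting at 10.88. The difference was -0.41 ± 0.06 (SE), and -0.29, -0.50 and -0.45 in the 3 experiments (limma, adjusted p = 5.1e-07). Ctsl, a cysteine protease that processes the invariant chain in some antigen-presenting cells, differed by -0.38 ± 0.03, Ctsa, which protects beta-galactosidase and neuraminidase in a complex, by -0.37 ± 0.03, and Ctsd, the main aspartic protease of the lysosome, by -0.30 ± 0.02. For these 3 the LPS arrays all lay below the controls. Ctsb, a cysteine protease, differed by -0.083 ± 0.015 in the brightest of its probe sets, and by -0.22 to -0.57 in the 4 others. Ctss, the cysteine protease that degrades the invariant chain, Ctsz, a carboxypeptidase, and Ctsh, an aminopeptidase, had differences of -0.012, 0.0012 and -0.028. Ctsf and Ctsk, the protease with which osteoclasts degrade collagen, lay near the filter level, with 10 and 7 of 12 control arrays and 9 and 5 of 12 LPS arrays above it. Their differences of -0.17 ± 0.10 and -0.10 ± 0.13 did not pass.

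Of 9 glycosidases, which trim sugars from glycolipids and glycoproteins, 8 were lower and 0 higher, where 50.5% of all genes tested were lower. Median centring gave 6 lower and 1 higher. Neu1, the sialidase that removes sialic acids, fell most. Its control arrays ran from 7.49 over 7.82 to 8.24, and its LPS arrays from 6.40 over 6.78 to 7.45. The highest LPS array was experiment H without serum, and it stayed below the lowest control. The difference was -0.97 ± 0.10 (SE), 1.96-fold lower (limma, adjusted p = 9.7e-09), and a second probe set gave -1.77. Gusb, beta-glucuronidase, differed by -0.64 ± 0.04, Naglu, which cleaves heparan sulfate, by -0.49 ± 0.07, Fuca1, the fucosidase, by -0.43 ± 0.03, and Gla, alpha-galactosidase, by -0.42 ± 0.04. Gaa, the enzyme that degrades glycogen, and Man2b1, the mannosidase, both differed by -0.36. Hexa, the alpha subunit of beta-hexosaminidase, differed by -0.16 ± 0.02 and turned to 0.054 under median centring. Glb1, beta-galactosidase, had -0.11 ± 0.05 and missed the threshold (limma, adjusted p = 0.055).

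Of 3 sulfatases, which remove sulfate from glycans and sulfatides, 1 was lower and 0 higher, where 50.5% of all genes tested were lower. Median centring gave 1 lower and 1 higher. Arsa, arylsulfatase A, ran from 8.32 over 8.53 to 8.85 on the control arrays and from 7.95 over 8.11 to 8.25 on the LPS arrays, without overlap. Its difference was -0.41 ± 0.06 (SE) (limma, adjusted p = 5.9e-07). Galns, which acts on keratan sulfate, had -0.12 ± 0.07 and Arsb, arylsulfatase B, 0.059 ± 0.10, both within the overlap of the groups.

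Of 7 lipid hydrolases, sterol carriers and related proteins, 5 were lower and 1 was higher, where 50.5% of all genes tested were lower. Median centring gave 3 lower and 2 higher. Smpd1, acid sphingomyelinase, which makes ceramide, ran from 7.90 over 8.27 to 8.35 on the control arrays and from 6.48 over 7.26 to 7.71 on the LPS arrays. The LPS arrays were spread widely and stayed below the controls. The difference was -0.93 ± 0.10 (SE), 1.91-fold lower (limma, adjusted p = 1.3e-08). Lipa, acid lipase, which frees cholesterol from esters for Npc2 and Npc1 to carry out, differed by -0.50 ± 0.02, and its 3 probe sets gave -0.47 to -0.50. Asah1, acid ceramidase, differed by -0.29 ± 0.03, Ppt1, a thioesterase, by -0.26 ± 0.05, and Psap, the precursor of the saposins, by -0.21 ± 0.03. Npc2, the soluble partner of Npc1, ran from 13.40 over 13.59 to 13.67 on the control arrays and from 13.58 over 13.65 to 13.71 on the LPS arrays, which overlapped. Its difference of 0.087 ± 0.026 (limma, adjusted p = 0.0045) missed the threshold without experiment H (adjusted p = 0.093), and it was 1.45 in a dim probe set and -0.0066 and 0.062 in the remaining pair. Grn, progranulin, had -0.022 ± 0.021.

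All 5 measured subunits of the proton pump were lower, where 50.5% of all genes tested were lower. Under median centring 3 of them were lower. Atp6v0d2, the d2 subunit known from osteoclasts and macrophages, ran from 12.14 over 12.29 to 12.61 on the control arrays and from 11.56 over 11.67 to 11.80 on the LPS arrays. The difference was -0.67 ± 0.03 (SE), 1.59-fold lower (limma, adjusted p = 1.8e-14), and a second probe set gave -0.81. Atp6v0d1, its widely expressed counterpart, differed by -0.50 ± 0.04, Atp6ap1, an accessory subunit, by -0.34 ± 0.04, and Atp6v1a, the catalytic subunit, by -0.25 ± 0.02. For the d subunits and Atp6ap1 the groups did not overlap. Atp6v1h, a regulatory subunit, had -0.15 ± 0.06 (limma, adjusted p = 0.022). It missed the threshold without the calf serum LPS array of experiment G (adjusted p = 0.051) and without experiment G (0.10) or I (0.13), and turned to 0.059 under median centring, where Atp6v1a became -0.035 and passed no more.

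The brightest probe sets showed the smallest differences. Split by mean level, the 15 brightest members, at means of 12.57 to 13.88, had a median LPS difference of -0.16. The 15 in the middle, at 10.59 to 12.23, had -0.37, and the 15 dimmest, at 5.12 to 10.55, had -0.35, while 10 members were lower in each of the 3 sets. Among 46 further tested probe sets of 27 members, all dimmer than the one reported, 34 gave a difference of larger absolute size (Ctsl -1.34 beside -0.38) and 12 a smaller one (Mcoln1 -0.094 beside -0.35, and Ppt1 0.0034 beside -0.26). By the test, 24 passed in the same direction as the one reported, 9 did not pass where it did, 6 passed where it did not, 7 passed in neither, and 0 passed in the opposite direction. The part of signal level in the sizes was not tested.

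Other genes of the lysosome, from lists chosen by function, are given for comparison. Counts of these lists are on the average over media, where 50.5% of all genes tested were lower and 28.9% higher. Of 20 further lysosomal hydrolases tested, 15 were lower and 2 higher. The risers were Acp5, the tartrate-resistant acid phosphatase, by 2.32 ± 0.10, and Naaa, which hydrolyses acylethanolamides, by 0.81 ± 0.11. The largest falls were Pla2g15, lysosomal phospholipase A2, at -1.75 ± 0.09, and Sgsh, a sulfatase of heparan sulfate, at -1.45 ± 0.10. Of 11 further pump subunits 8 were lower and 1 higher, with Atp6v0a1 at -0.80 ± 0.04 and Atp6v1c1 at -0.46 ± 0.04 against Atp6v1e1 at 0.39 ± 0.03. Under median centring the pump list held 3 lower and 4 higher and the hydrolase list 10 and 4.

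Further lysosomal membrane proteins split both ways, with 10 of 20 lower and 8 higher, the same counts as under either scaling. Cd164, a sialomucin, rose by 1.96 ± 0.05 and Slc15a3, a transporter of histidine and peptides, was 2.82-fold higher. Ctns, the cystine exporter, was lower at -1.87 ± 0.06, and Tpcn1, an endolysosomal cation channel, at -1.38 ± 0.06. Of 9 genes that sort hydrolases to lysosomes 5 were lower and 2 higher, and 3 and 3 under median centring. Sort1, sortilin, stood at -0.98 ± 0.12 and the adaptor Gga2 at -0.86 ± 0.07, while Gnptab, which builds the mannose 6-phosphate tag, and the receptor M6pr rose by 0.19 ± 0.06 and 0.15 ± 0.05.

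Genes that set where TFEB is in the cell were mostly lower. Of 19 tested for mTORC1, the Rag GTPases and calcineurin, 16 were lower and 1 higher, where 50.5% of all genes tested were lower. Median centring gave 10 lower and 3 higher. Flcn, folliculin, which acts on RagC and RagD and so lets mTORC1 phosphorylate TFEB, ran from 10.04 to 10.55 on the control arrays and from 7.70 to 8.51 on the LPS arrays. Its difference was -2.25 ± 0.07 (SE) (limma, adjusted p = 5.3e-19). Rragd, a Rag GTPase that is itself a TFEB target, ran from 9.88 to 10.68 and from 7.64 to 8.85, and differed by -1.95 ± 0.07. Lamtor5, a subunit of the Ragulator scaffold, rose by 0.24 ± 0.11 (limma, adjusted p = 0.047). The lists were chosen with earlier results of these arrays known, so the counts describe them and test nothing about the lists.

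Serum alone changed few of the members in resting cells. Across the 4 media without LPS, 6 of 45 members differed by the F test (13.3%, beside 18.2% of all genes): Tfeb, Mitf, Ctsh, Lipa, Atp6v0d2 and Atp6v1a. Lipa alone among these passed the F test without each single experiment. Calf serum against no serum called 0 higher and 0 lower by limma, with 5 members at an unadjusted p under 0.05, where 0.696% of all genes were higher and 2.27% lower. Mouse serum against no serum called 0 higher and 3 lower (4.47% and 5.34% of all genes), and human serum 0 higher and 5 lower (4.73% and 5.69%). The serum comparisons share the serum-free arrays.

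Tfeb was lower in mouse serum, at -0.93 ± 0.22 (SE) (limma, adjusted p = 0.0053), and in human serum, at -0.71 ± 0.22 (adjusted p = 0.035). Calf serum, at -0.12 ± 0.22, did not pass. Its values are given above: none of the 6 control arrays in mouse and human serum reached the lowest serum-free control, 8.29. The mouse serum difference was -0.61, -0.88 and -1.29 in experiments G, H and I, and it missed the threshold without experiment H (adjusted p = 0.050) or I (0.20). The human serum difference missed it without experiment G, H or I (adjusted p = 0.055, 0.24 and 0.20) and without any of 5 single arrays: the 3 serum-free controls (0.12, 0.062 and 0.084) and the human serum controls of experiments H and I (0.18 and 0.078). It also missed under median centring (0.062) and quantile normalization (0.072). Mitf differed across media by the F test (limma, adjusted p = 0.037), with a human serum difference of -0.36 ± 0.12 that missed the threshold (adjusted p = 0.052). Without the human serum control of experiment G the difference was -0.14 and the F test gave an adjusted p of 0.23. In all, the F test missed the threshold without any of 6 single arrays and without each experiment (adjusted p = 0.11 to 0.14). It also missed it under median centring (0.099).

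Lipa had the smallest adjusted p of the serum comparisons. It read 13.49, 13.53 and 13.43 in experiments G, H and I without serum, 13.40, 13.45 and 13.45 in calf serum, 13.43, 13.47 and 13.47 in mouse serum and 13.19, 13.24 and 13.21 in human serum. The 3 human serum arrays lay below the 9 others. Human against no serum was -0.27 ± 0.04 (SE), 1.21-fold lower (limma, adjusted p = 3.5e-05), and it passed without any single array or experiment (adjusted p up to 0.0075). Ctsh was likewise lowest in human serum. It read 11.50, 11.64 and 11.40 without serum, 11.55, 11.52 and 11.43 in calf serum, 11.49, 11.41 and 11.46 in mouse serum and 11.13, 11.27 and 11.14 in human serum. Its human serum difference was -0.34 ± 0.07 (limma, adjusted p = 0.0037), which missed the threshold without experiment G (0.11).

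Set against each other in resting cells, mouse and human serum called 2 members higher in mouse serum and 0 lower, where 2.56% of all genes were higher and 2.69% lower. These were Lipa, at 0.24 ± 0.04 (limma, adjusted p = 0.00021), and Ctsh, at 0.27 ± 0.07 (0.029). Lipa missed the threshold when its brightest probe set, of the kind whose probes can match several transcripts of a family, gave way to another (0.13, adjusted p = 0.14). Ctsh missed it without the mouse or human serum control of experiment G or I (adjusted p = 0.094 to 0.11), without experiment G (0.42) or I (0.27), and under median centring (0.068).

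**Figure D5:**
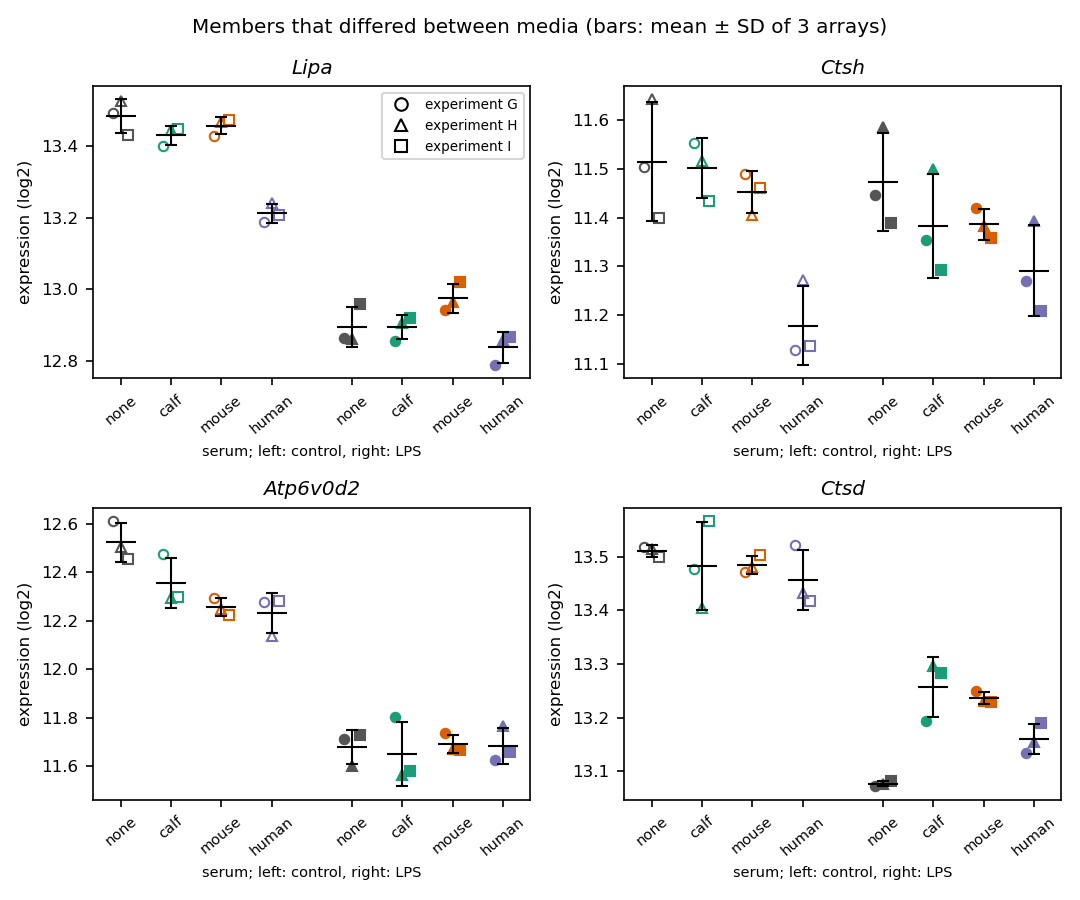
Level in each array (y axis, log2) of Lipa, Ctsh, Atp6v0d2 and Ctsd in the 4 media without LPS (left, open symbols) and with LPS (right, filled symbols), with the mean ± SD of 3 arrays. Lipa and Ctsh are lowest in human serum without LPS, at 13.19 to 13.24 and 11.13 to 11.27, and Ctsd is lowest in serum-free medium with LPS, at 13.07 to 13.08.

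The pump subunit Atp6v0d2 was lower in mouse and human serum, and Atp6v1a in mouse serum. Atp6v0d2 read 12.61, 12.50 and 12.45 without serum, 12.48, 12.29 and 12.30 in calf serum, 12.30, 12.25 and 12.22 in mouse serum and 12.28, 12.14 and 12.28 in human serum. The mouse serum difference was -0.27 ± 0.07 (SE) (limma, adjusted p = 0.011) and the human serum difference -0.29 ± 0.07 (0.0066). The first missed the threshold without the serum-free control of experiment G (0.076) and without experiment G, H or I (0.057, 0.072 and 0.12), and the second without experiment H or I (0.099 and 0.055) and under median centring (0.050). Atp6v1a read 12.88, 12.87 and 12.93 without serum and 12.68, 12.66 and 12.71 in mouse serum, a difference of -0.21 ± 0.05 (limma, adjusted p = 0.0056) that missed the threshold without experiment G (0.078) or I (0.12) and under median centring (0.058). Naglu in human serum, at -0.43 ± 0.14 (limma, adjusted p = 0.046), missed it without any of 14 single arrays (0.051 to 0.26), most of all without the human serum control of experiment I.

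With LPS present, few members were called between media. Across the 4 media 1 member differed by the F test (16.1% of all genes), Ctsd. Calf serum against no serum called 2 higher and 0 lower, where 5.00% of all genes were higher and 5.85% lower, and mouse serum 2 higher and 0 lower (6.82% and 6.58%). Human serum called 0 and 0 (2.60% and 2.64%), with 5 members at an unadjusted p under 0.05 in limma, and mouse against human serum 0 and 0 (1.29% and 1.10%), with 3.

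Ctsd, the aspartic protease, was the member called in both. On the LPS arrays it read 13.07, 13.08 and 13.08 without serum, 13.19, 13.30 and 13.28 in calf serum, 13.25, 13.23 and 13.23 in mouse serum and 13.13, 13.16 and 13.19 in human serum. The serum-free arrays were the lowest and close to each other. The difference was 0.18 ± 0.04 (SE) in calf serum (limma, adjusted p = 0.0034) and 0.16 ± 0.04 in mouse serum (0.0073). The calf serum difference missed the threshold without experiment H or I (both 0.080), and the mouse serum difference without experiment G, H or I (0.095, 0.053 and 0.076) and under median centring (0.097). Man2b1 in calf serum, at 0.19 ± 0.06 (limma, adjusted p = 0.046), and Fuca1 in mouse serum, at 0.20 ± 0.06 (0.044), were the other calls. They missed the threshold without any of 14 and 12 single arrays (up to 0.29 and 0.15), and with the mean of all probe sets Man2b1 turned to -0.19.

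For few members did the LPS response itself differ between media. Against no serum, calf serum called 0 members with a higher and 0 with a lower LPS difference by limma (0.899% and 0.899% of all genes), with 2 at an unadjusted p under 0.05. Mouse serum called 1 and 0 (3.40% and 3.05%), and human serum 1 and 0 (2.50% and 2.46%). By the F test over the 4 media 1 member, Lipa, was called (limma, adjusted p = 0.048), where 9.23% of all genes were, and it missed the threshold without any of 20 of the 24 single arrays (up to 0.12). For Tfeb the LPS response in mouse serum minus that in no serum was 0.38 ± 0.31 and in human serum 0.25 ± 0.31, neither past the threshold.

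Lipa fell by less in human serum, the medium in which it began lower: its LPS difference was -0.59 ± 0.04 without serum and -0.37 ± 0.04 in human serum. The difference of these was 0.21 ± 0.05 (SE) (limma, adjusted p = 0.019), and 0.23, 0.28 and 0.14 in experiments G, H and I. It missed the threshold without any of 5 single arrays (adjusted p = 0.051 to 0.065), without experiment G, H or I (0.18, 0.24 and 0.10) and under median centring (0.13). For Ctsd the LPS difference was -0.43 ± 0.04 without serum and -0.25 ± 0.04 in mouse serum, a difference of 0.18 ± 0.06 (adjusted p = 0.047) that missed it without any of 19 of the 24 single arrays (up to 0.097). On the LPS arrays the Lipa levels of the 4 media, 12.79 to 13.02, lay closer together than on the control arrays, 13.19 to 13.53.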

How the data were processed

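The 24 arrays measured total RNA of mouse bone marrow-derived macrophages, in 8 groups of 3 named by the sample titles. The deposited table held a log2 expression level for each of the 45101 probe sets. The scale is not stated, and the values, from 1.48 to 14.84, were taken as log2. GCRMA and Partek are named in the submitters' processing notes, with no versions, and steps beyond these names are not given in the sources used here. GCRMA models background and quantile normalizes, and its part in the sizes of the differences was not tested. Depth does not apply to arrays, and their number limits the precision.

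Of 45101 probe sets, 34945 named 1 gene in the platform annotation, 932 several, 9160 none, and 64 were controls. The probe set with the highest mean stood for a gene. A gene was kept where 3 or more of the 24 arrays exceeded 5.08, the median over the whole table. limma 3.58.1 (R 4.3.3) fitted 1 mean per group over all arrays, with eBayes (trend and robust), 16 contrasts and 3 F tests, each Benjamini-Hochberg adjusted over 11785 genes at 0.05, two-sided. Differences are given ± SE. The procedure was tested on simulated data with independent noise on each array, which held no effect shared by arrays of an experiment.

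The members and lists were chosen with earlier results of these data known. Tfeb, Tfe3 and Mitf and, in each role list, the largest called rise and fall were given in more detail. For these the text holds values per array or the lowest, median and highest array of each treatment. Up to 3 members were named each way per serum comparison, 6 per difference of LPS responses and 2 each way per list of other genes. Further probe sets were tested in a fit that included them. Promoters came from RefSeq (GRCm38.p6). Alternatives were median centring, quantile normalization, experiment or array date as a block, no filter, other choices of probe set, eBayes without trend and robust, fits on the compared groups alone, and leaving out each array or experiment.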

Additional observations from a re-analysis of the deposited data

Results flagged for a closer look

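These results were marked because the LPS difference of a gene differed between media in a test of that difference. Ctsd fell with LPS by 0.18 less in mouse serum than in no serum on the log2 scale (limma, adjusted p = 0.047). Lipa fell by 0.21 less in human serum than in no serum (limma, adjusted p = 0.019). For Lipa the LPS difference also varied over the 4 media by the F test, with a range of 0.21 (limma, adjusted p = 0.048). These calls missed the threshold without any of 19, 5 and 20 single arrays, in that order, and without each experiment.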

How the results depend on the processing

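Lower and higher members for LPS moved by over 1.5 times under median centring, to 15 and 10 in serum-free cells, with splits of 15 and 12, 12 and 9, and 13 and 9 for the calf, mouse and human sera, and to 13 higher for the average, where 21 lower stayed within 1.5 times of the reported 30. Under the other alternatives the counts in each direction stayed within 1.5 times. Both directions summed gave 25 to 33 without serum, 25 to 32 in calf, 21 to 31 in mouse, 22 to 29 in human serum and 32 to 36 for the average, which does not show the shift between directions. Over all members, comparisons and alternatives, 24512 results kept direction and side of the threshold, 308 lost the threshold, 127 gained it, 42 that were called in the reported or the alternative fit turned sign, and 915 called in neither changed sign. The serum and response counts are small and moved by over 1.5 times as follows, in the order in which the report gives them. The cause of each change was not tested.

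Leaving out 1 array or experiment gave 1 to 3 members for mouse serum and 2 to 7 for human serum in resting cells, 1 to 2 for mouse against human serum and 2 to 7 for the F test. With LPS it gave 0 to 2 for calf, 0 to 3 for mouse and 0 to 1 for human serum and 0 to 2 for the F test. For the difference of LPS responses it gave 0 to 1 for calf, 0 to 1 for mouse and 0 to 2 for human serum and 0 to 1 for the F test. Median centring gave 2 for human serum, 1 for mouse against human serum and 3 for the F test in resting cells, 1 for calf serum, 0 for mouse serum and 0 for the F test with LPS, and 0 for the responses in mouse serum, in human serum and over the media. Quantile normalization gave 1 for the calf serum response and 2 for the response over the media. The mean of all probe sets gave 1 for calf serum in resting cells, 4 for mouse serum, 1 for human serum, 2 for mouse against human serum and 5 for the F test with LPS, and 2, 3, 4 and 7 for the responses in calf, mouse and human serum and over the media. Without probe sets ending in _x_at or _s_at it was 1 for mouse serum with LPS, 1 for mouse against human serum in resting cells, and 0 for the responses in human serum and over the media. Without a filter it was 1 for calf and 1 for mouse serum with LPS and 0 for the responses in mouse serum and over the media. With eBayes without trend and robust it was 0 for calf serum, mouse serum and the F test with LPS, 1 for mouse against human serum and 3 for the F test in resting cells, and 0 for the responses in mouse serum, in human serum and over the media. With the compared groups alone it was 1 for calf and 1 for mouse serum with LPS, 1 for mouse against human serum in resting cells and 0 for the human serum response. With the array date as a block it was 1 for mouse against human serum and 3 for the F test with LPS, and 2 for the responses in human serum and over the media.

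The experiment letters were used as a replicate block in 1 alternative. Deviations from the group means correlated at a median of 0.062 between arrays of the same experiment (84 pairs, -0.046 to 0.18, 17 over 0.1) and -0.035 between experiments (168 pairs), and 20 of 24 arrays correlated best with an array of their own experiment, a hint from the data that fell short of every pair. The replicate block gave 31, 31, 27 and 29 for LPS in the 4 media and 34 for the average, 1 for mouse against human serum and 3 for the F test with LPS, and 1, 3, 2 and 2 for the responses in calf, mouse and human serum and over the media. It called Glb1 lower with LPS (limma, adjusted p = 0.032).

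Of the results called in at least 1 of the fits, those that turned sign did so mostly under median centring, which raised each LPS difference. Without serum the centred values were 0.11 for Ctsb, 0.20 for Ctsh, 0.21 for Ctss, 0.20 for Ctsz, 0.21 for Grn, 0.013 for Hexa, 0.059 for Lamp1 and 0.19 for Laptm5. In calf serum they were 0.14 for Ctsb, 0.011 for Ctsd, 0.20 for Grn, 0.12 for Hexa, 0.16 for Lamp1, 0.19 for Laptm5 and 0.046 for Psap. In mouse serum they were 0.030 for Atp6v1a, 0.13 for Ctsb, 0.052 for Hexa, 0.060 for Lamp1 and 0.18 for Laptm5. In human serum they were 0.13 for Ctsb, 0.15 for Ctss, 0.17 for Ctsz, 0.15 for Grn, 0.030 for Hexa, 0.041 for Lamp1, 0.15 for Laptm5 and 0.048 for Psap. On the average they were 0.059 for Atp6v1h, 0.13 for Ctsb, 0.18 for Ctsh, 0.20 for Ctss, 0.19 for Grn, 0.054 for Hexa, 0.079 for Lamp1 and 0.18 for Laptm5. A further 24 LPS differences called on neither scale changed sign under median centring, of which 5 on the average: Ctsf, Ctsk, Galns, Glb1 and Scarb2. With the mean of all probe sets, Ctsc in calf serum without LPS turned to -0.46 and Man2b1 in calf serum with LPS to -0.19. Without probe sets ending in _x_at or _s_at, Laptm5 with LPS turned to 0.38 without serum, 0.45 in calf serum and 0.30 on the average, and Ctsz on the average to -0.077.

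With 3 arrays a group, small differences between media could not be resolved, and a member that missed the threshold is not shown to be equal between media. Ctsf and Ctsk lay near the filter level, so little can be said of them.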

Other observations

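Genes next to the lysosomal programme also moved with LPS on the average over the 4 media. On that average 50.5% of all genes tested were lower and 28.9% higher. Of 21 autophagy genes tested, 14 were lower and 2 higher (13 and 3 under median centring). Ulk1, the kinase that starts autophagy, fell from 8.03 to 9.10 on the control arrays to 7.07 to 7.78 on the LPS arrays, at a difference of -1.34 ± 0.09 (SE). Tecpr1, a tether between autophagosome and lysosome, differed by -1.41 ± 0.06. Atg16l1, which places LC3 on the forming membrane, rose by 1.02 ± 0.08, and Sqstm1, the cargo receptor p62, by 0.15 ± 0.02.

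Of 3 inhibitors of cathepsins, Cst7, cystatin F, rose from 5.26 to 6.37 on the control arrays to 9.55 to 10.00 on the LPS arrays, by 3.92 ± 0.10 (SE). Cst3, cystatin C, and Cstb, cystatin B, differed by -0.23 ± 0.02 and -0.057 ± 0.025. Under median centring this list held 2 higher and 0 lower. Of 11 other E-box factors tested, 6 were lower and 4 higher, the same counts as under either scaling. Max, the partner of Myc, rose by 1.74 ± 0.12, and Mxi1, a Max partner that represses, and Bhlhe41, a repressor in the clock, differed by -1.32 ± 0.07 and -0.99 ± 0.11. These lists were chosen with earlier results of these arrays known, and each named difference passed the limma threshold.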
